A study of Mus musculus with 6 samples.

Results

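The expression of 10 genes of the p53 pathway was examined in mouse intestinal organoids: Trp53, which encodes p53, its regulators Mdm2 and Mdm4, and the target genes Bax, Bbc3, Pmaip1, Ccng1, Sesn2, Trp53inp1 and Phlda3. They were taken by gene symbol from the 52249 genes of the deposited count table, and all 10 were found once each. Intestinal organoids are epithelial cultures grown from crypt cells. Every organoid was an Apc knockout, which removes a tumour suppressor and brake on WNT signalling. The control group held 3 Apc-knockout libraries, and the other group held 3 libraries labelled Apc-knockout with IGF2BP3 overexpression, called OE-labelled here; IGF2BP3 is an RNA-binding protein that binds and stabilises mRNAs. The labels do not say how Apc was deleted, how IGF2BP3 was expressed, which mice or clones were used, or whether the 3 libraries of a group came from separate cultures, so the p-values measure only the spread between these libraries, which may be technical.

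p53 is a transcription factor that is kept low in unstressed cells. MDM2 is a ubiquitin ligase that marks p53 for destruction, MDM4 is its partner that blocks the activity of p53, and Mdm2 is itself a p53 target, which closes a feedback loop. When DNA damage or other stress frees p53, it raises genes that stop the cell cycle, such as Cdkn1a, and genes that start cell death, such as Bax, Bbc3 (PUMA) and Pmaip1 (NOXA). p53 is controlled largely at the protein level, so the amount of its mRNA is only one part of its activity. In intestinal crypts, p53 and PUMA are known for their part in cell death after irradiation.

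Each library held between 2180116 and 2519917 counts, and the label of overexpression could not be checked, because Igf2bp3 itself had at most 1 count in any library, below the floor of 3 counts. The library names form a separate series for each group, so library series and group cannot be told apart in what follows. Of the 8 epithelial markers, 7 were expressed and Cdx1 was at 0 in all libraries. The summed level of the 8 ran from 3948 to 4172 CPM (TMM-scaled counts relative to library size) in control and from 5325 to 6025 CPM in OE-labelled libraries. The 6 fibroblast markers summed to at most 1.41 CPM and the 5 endothelial markers to at most 1.84 CPM in any library. The 6 immune markers summed to between 13.6 and 20.3 CPM over all libraries, nearly all of it from Cd68, with Cd3e, Cd79a and Lyz2 at 0. In bulk RNA, fewer cells expressing a gene and less RNA per cell cannot be told apart.

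The p53 protein binds DNA at a pair of copies of a short motif, the decamer. The RefSeq promoter windows, which run from 250 bases before to 50 bases after each transcript start in GRCm38.p6, were searched on both strands for the p53 decamer consensus, which reads the same on either strand. Of the 8 members with a window, 4 held a decamer, against 2582 of 27025 genes with a window (9.6%). Only exact matches to the consensus were counted, so a decamer with a mismatch was missed. No member window held a pair of exact matches. The members were chosen as p53 pathway genes, so their share is not a test. Trp53inp1 and Pmaip1 had no window. The decamers are shown here with 20 bases on each side, because the genes that carry one include 2 members that were lower in OE-labelled libraries (Bax and Mdm2) and 2 that did not pass the test (Ccng1 and Trp53). Capitals mark the exact matches, and each line reads along the strand of its gene. Cdkn1a is added as the textbook target. The window at its more upstream start held 2 exact matches with 12 bases between them, and its other window held 0. Closer pairs with a mismatch were not looked for. A pair of exact matches within a spacing of at most 13 bases was found in 24 of 32851 windows (0.07%).
Bax, chr7:45467070-45467119, minus strand: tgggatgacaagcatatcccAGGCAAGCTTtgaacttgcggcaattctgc
Mdm2, chr10:117710915-117710964, minus strand: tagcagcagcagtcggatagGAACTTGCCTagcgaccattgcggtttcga
Ccng1, chr11:40755442-40755491, minus strand: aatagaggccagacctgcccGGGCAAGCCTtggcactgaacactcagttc
Trp53, chr11:69580264-69580313, plus strand: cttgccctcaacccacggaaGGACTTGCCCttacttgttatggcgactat
Cdkn1a, chr17:29090886-29090957, plus strand: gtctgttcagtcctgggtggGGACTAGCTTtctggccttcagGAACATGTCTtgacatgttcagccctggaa
The bases directly before the Ccng1 decamer come close to the consensus but hold a mismatch, so they stay in lower case. The same holds for the bases directly after the Cdkn1a decamer nearer the transcript start. A match is a description of the letters and shows no binding. Known p53 sites can also lie outside such a window, in introns or farther upstream.

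Across the 10 genes, 3 fell in OE-labelled libraries at an edgeR adjusted p below 0.05 (Mdm2, Bax and Trp53inp1) and 0 were higher. Over all 10687 tested genes 29.2% passed this threshold, 16.5% higher and 12.7% lower, so 3 of 10 is close to the background share of calls. Without adjustment, 4 members had p below 0.05, all lower, against 41.2% of all tested genes (23.1% higher and 18.1% lower). DESeq2 and limma-voom also gave 3 lower and 0 higher, where DESeq2 called 19.6% of its tested genes (10.4% higher and 9.27% lower) and limma-voom 28.7% (15.8% higher and 12.9% lower). Without control replicate 2 or control replicate 3 the count of members called was 1, and the count over all genes went from 3118 to 1893, 1837 and 1748 without control replicates 1, 2 and 3. The groups did not overlap for the same 3 genes, against 45.7% of all tested genes. The median log2 fold change of the 10 members was -0.32, with 7 negative and 3 positive values, beside 0.04 over all tested genes. All 10 members passed the filter on low counts. The groups differed in spread. Beyond counting noise, edgeR put the variation between libraries at 3.15% in control and 17.2% in OE-labelled libraries, over all tested genes. The edgeR test used a single dispersion per gene for both groups, so each of its p-values pools these unlike spreads.

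**Figure D1:**
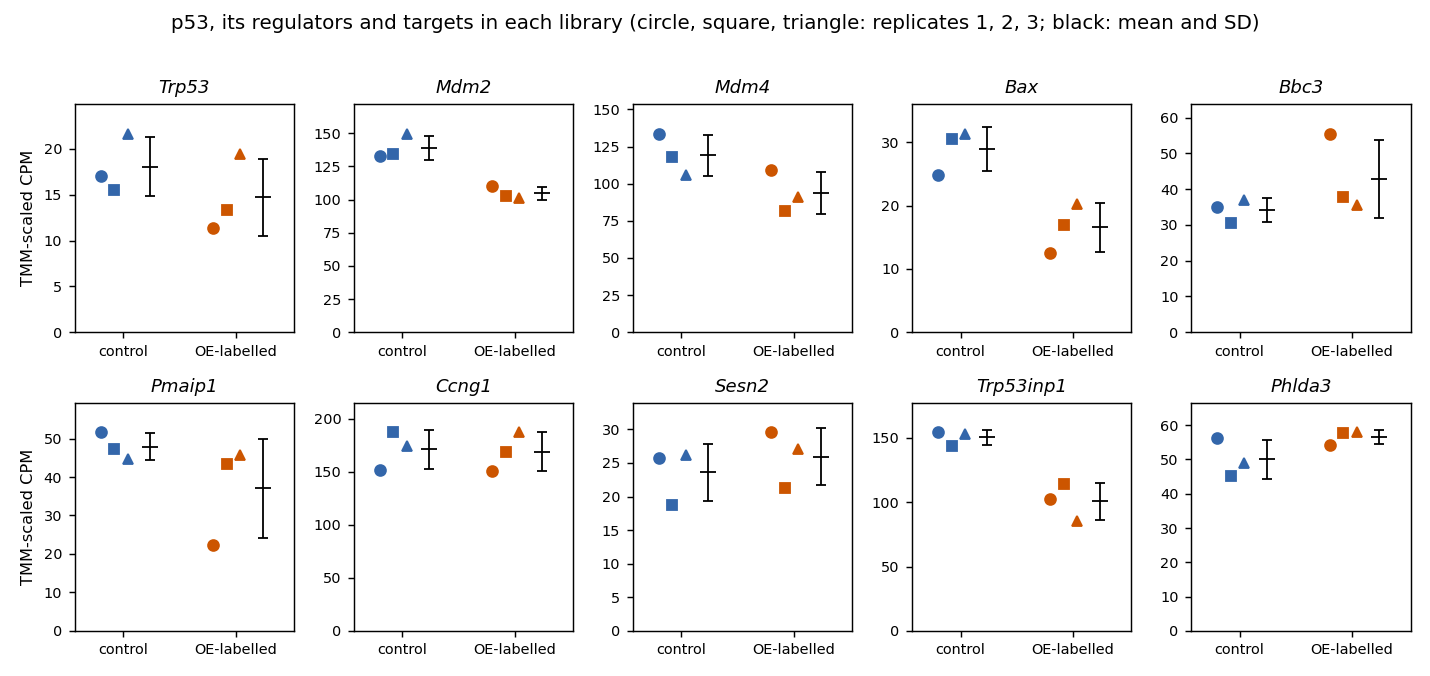
TMM-scaled CPM of each of the 10 genes (y axes, each from 0) in the 3 control (blue) and 3 OE-labelled (orange) libraries; circles, squares and triangles are replicates 1, 2 and 3, and black bars are the mean and SD. The OE-labelled libraries lie below every control library for Mdm2, Bax and Trp53inp1, and overlap them for the other 7 genes.

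Trp53 itself was not distinguished between the groups. Trp53 (ENSMUSG00000059552, plus strand of chromosome 11, 69580359 to 69591873, in GRCm38 like all gene positions here) was counted at 17.1, 15.5 and 21.7 CPM in control libraries 1 to 3 and at 11.3, 13.4 and 19.5 CPM in OE-labelled libraries 1 to 3. The ranges overlapped, with OE-labelled library 3 above 2 of the control libraries. On the log2 scale the fitted change was -0.30 (edgeR SE 0.25, adjusted p = 0.386), with a 95% interval from -0.83 to 0.24. These values rest on 28 to 47 reads per library. Trp53 varied among OE-labelled libraries with a coefficient of variation of 28.7%, where counting noise alone gives 16.7%. The processed pseudogene Trp53-ps held 1 count in OE-labelled library 1 and 0 in every other library. Wrap53, the head-to-head neighbour on the opposite strand, does not overlap Trp53 in this annotation and was counted at 9 to 17 reads per library, with a log2 difference of 0.13 (edgeR SE 0.32, adjusted p = 0.789).

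Of the p53 inhibitors, Mdm2 fell and Mdm4 did not pass the test. Mdm2 (ENSMUSG00000020184, minus strand of chromosome 10, 117688875 to 117710758) was counted at 132.7, 134.6 and 149.7 CPM in control and at 110.6, 102.6 and 101.5 CPM in OE-labelled libraries. All 3 OE-labelled values lay below the lowest control value. The fit gave a log2 fold change of -0.41 (edgeR SE 0.11, adjusted p = 0.016). The call was lost without control replicate 2 (adjusted p = 0.0557) or control replicate 3 (adjusted p = 0.0985), with changes of -0.43 and -0.35, within a range of 0.00199 to 0.0985 over 18 alternatives.

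Mdm4 (ENSMUSG00000054387, minus strand of chromosome 1, 132959484 to 133030561) was counted at 133.7, 117.8 and 106 CPM in control and at 109.4, 81.8 and 90.9 CPM in OE-labelled libraries. OE-labelled library 1 lay above the lowest control library, and libraries 2 and 3 lay below all of them. This gave a log2 fold change of -0.34 (edgeR SE 0.14, adjusted p = 0.0801), with a 95% interval from -0.64 to -0.04 that is not adjusted for the number of genes. Without OE-labelled replicate 1 the change was -0.52 and passed (adjusted p = 0.00331). With the per-library offset for GC content it was -0.12 (adjusted p = 0.625). The ratio of Mdm2 to Mdm4 counts within a library, which does not depend on how libraries are scaled, averaged 1.18 ± 0.213 for control against 1.13 ± 0.122 for OE-labelled libraries (SD, n = 3; two-sided exact permutation p = 0.7). The smallest p that 3 against 3 libraries can give is 0.1.

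**Figure D2:**
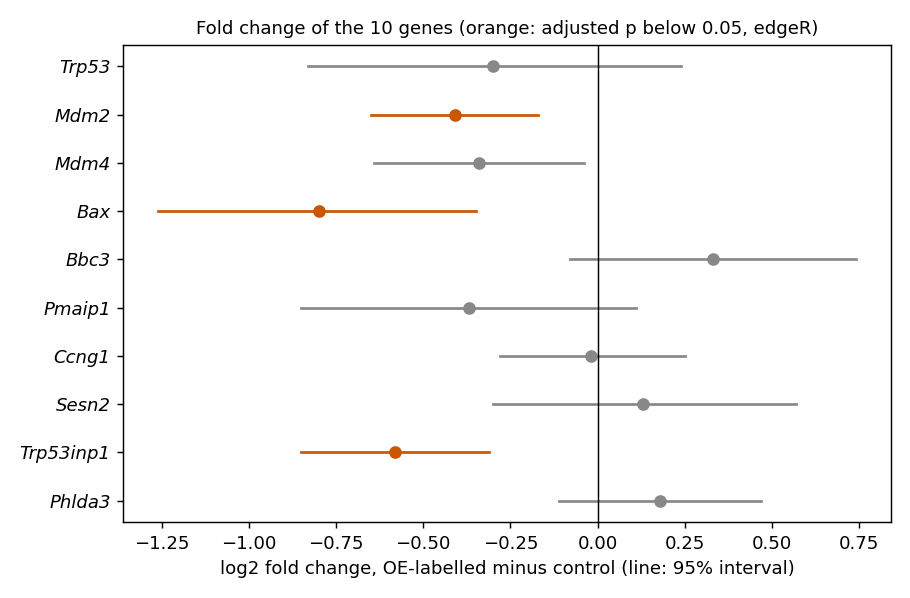
Log2 fold change of each of the 10 genes (x axis, OE-labelled minus control, edgeR) with its 95% interval; orange marks an adjusted p below 0.05. Bax has the largest fitted change (-0.80), Mdm2 (-0.41) and Trp53inp1 (-0.58) also pass, and Ccng1 sits at -0.02.

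Among the genes of the cell death arm, Bax fell while Bbc3 and Pmaip1 did not pass the test. BAX permeabilises the outer mitochondrial membrane, and PUMA and NOXA are small BH3-only proteins that bind and neutralise its antagonists. Bax (ENSMUSG00000003873, minus strand of chromosome 7, 45461697 to 45466898) had deposited values of 53.5, 65 and 67.5 in control libraries 1 to 3 against 31, 43 and 48 in OE-labelled libraries 1 to 3. As CPM of the rounded counts these were 24.9, 30.5 and 31.3 in control and 12.6, 16.9 and 20.3 in OE-labelled libraries. Every OE-labelled value lay below every control value. Its log2 fold change was -0.80 (edgeR SE 0.21, adjusted p = 0.0134), with a 95% interval from -1.26 to -0.35. The call was lost without control replicate 2 (-0.76, adjusted p = 0.0588) or control replicate 3 (-0.74, adjusted p = 0.0653), within a range of 0.000894 to 0.0653 over 18 alternatives.

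The fractional counts of Bax came with an overlapping gene. Gm45808 overlaps exons of Bax on the same strand, and its deposited values were 0.5, 0 and 0.5 across the control group, above 0 in the 2 libraries where Bax was fractional too, and 0 throughout the OE-labelled group.

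Bbc3 and Pmaip1 each had 1 OE-labelled library far from the others, and it was the same library. This was not particular to the pair. OE-labelled library 1 also stood apart for Gtse1 (9 reads against 43 and 45) and Dram1 (37 against 105 and 119). For Cdkn1a it was library 3 (965 reads against 1580 and 1654). A link between Bbc3 and Pmaip1 was not tested. Bbc3 (ENSMUSG00000002083, plus strand of chromosome 7, 16308393 to 16318205) was counted at 35, 30.5 and 36.9 CPM in control and at 55.5, 37.8 and 35.5 CPM in OE-labelled libraries. OE-labelled library 1, with 137 reads, was far above the control range, library 2 lay just above it and library 3 inside it. On the log2 scale the fitted change was 0.33 (edgeR SE 0.19, adjusted p = 0.206), and it was 0.05 without OE-labelled replicate 1 (adjusted p = 0.856).

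Pmaip1 (ENSMUSG00000024521, plus strand of chromosome 18, 66458533 to 66465565) was counted at 51.6, 47.4 and 44.7 CPM in control and at 22.3, 43.3 and 45.7 CPM in OE-labelled libraries. OE-labelled library 1 held 55 reads where libraries 2 and 3 held 110 and 108, and library 3 lay inside the control range. The fit gave a log2 fold change of -0.37 (edgeR SE 0.22, adjusted p = 0.224), and it was -0.16 without OE-labelled replicate 1. The coefficient of variation among OE-labelled libraries was 34.7% for Pmaip1 and 25.5% for Bbc3, where counting noise alone gives 10.5% and 9.73%. Among control libraries it was 7.29% and 9.6%, below the 9.84% and 11.7% of counting noise. The ratio of Bbc3 to Pmaip1 counts was 0.679, 0.644 and 0.825 in control and 2.49, 0.873 and 0.778 in OE-labelled libraries, with OE-labelled library 1 far above the control range, library 2 just above it and library 3 inside it (two-sided exact permutation p = 0.2).

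The remaining members are p53 targets with other roles, and 1 of these 4 passed the test. Trp53inp1, which encodes a protein that promotes p53 phosphorylation and autophagy, fell (ENSMUSG00000028211, plus strand of chromosome 4, 11156431 to 11174379). It was counted at 154.4, 144 and 153 CPM in control and at 102.9, 114 and 85.4 CPM in OE-labelled libraries. The control values lay close together and well above all OE-labelled values. This gave a log2 fold change of -0.58 (edgeR SE 0.12, adjusted p = 0.00467), and it passed in every fit that left out 1 library (-0.70 to -0.47). With the GC offset it was -0.29 and no longer passed (adjusted p = 0.158). The GC content of its transcripts was 41.1%. That value, like the offset, uses full annotated transcripts and not the part that was sequenced.

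Ccng1, Sesn2 and Phlda3 did not differ detectably. Ccng1 (cyclin G1, a widely used p53 target that feeds back on MDM2) was counted at 151.6, 187.2 and 174.6 CPM in control and at 151.1, 169.1 and 187.3 CPM in OE-labelled libraries. The groups covered nearly the same range, with a log2 fold change of -0.02 (edgeR SE 0.12, adjusted p = 0.933) and a 95% interval from -0.28 to 0.25. With the GC offset the value was 0.31 (adjusted p = 0.0677), and the GC content of its transcripts was 37.4%, the lowest of the 10 genes. Sesn2, a stress-induced inhibitor of mTORC1, was counted at 25.8, 18.8 and 26.3 CPM in control and at 29.6, 21.2 and 27.1 CPM in OE-labelled libraries. Its log2 fold change was 0.13 (edgeR SE 0.20, adjusted p = 0.651), with a 95% interval from -0.30 to 0.57. Phlda3, a pleckstrin-homology protein that restrains AKT, was counted at 56.2, 45 and 48.8 CPM in control and at 54.3, 57.8 and 57.9 CPM in OE-labelled libraries. One control library lay above the lowest OE-labelled library, and the log2 fold change was 0.18 (edgeR SE 0.13, adjusted p = 0.339), with a 95% interval from -0.11 to 0.47.

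**Figure D3:**
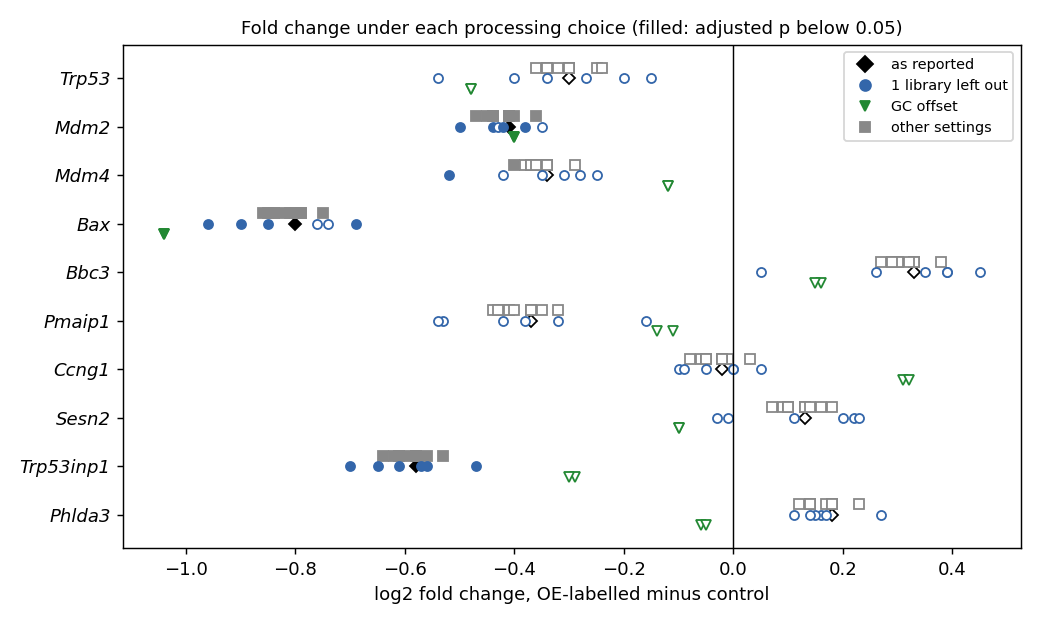
Log2 fold change of each of the 10 genes (x axis, OE-labelled minus control) as reported (diamond), with 1 library left out (circles), with the GC offset (triangles) and under the other settings (squares); filled symbols passed an adjusted p below 0.05. Bax and Mdm2 stay negative and lose the call only in 2 of the circles each, whereas Trp53inp1 moves to -0.29 and Ccng1 to 0.31 with the GC offset.

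The wider pathway was then read from 121 further genes in 8 lists, of which 106 passed the filter on low counts. In OE-labelled libraries 12 of them rose and 17 fell (27.4% called, against 29.2% of all tested genes), and the median log2 fold change was -0.06. The count of calls, 29 in all, was 12, 14 and 13 in the fits without control replicates 1, 2 and 3, and 18 with DESeq2. The 15 genes that were not tested had at most 17 counts in any library. The p53 relatives Trp63 and Trp73 were among them, with a single count of Trp63 in 1 library, and Fas had at most 10 counts.

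In the list of ligases, deubiquitinases and nucleolar inhibitors of MDM2, 5 of 15 tested genes were higher and 3 lower. This is 53.3% called, against 29.2% of all tested genes (16.5% higher and 12.7% lower). The list also holds genes of other kinds (Ppm1d, Sirt1, Daxx and Ccng2), and Ccng2 was among the lower ones. Huwe1, a large ubiquitin ligase with p53 among its substrates, fell from 296.3 ± 7.13 to 166 ± 32 CPM (SD, n = 3), which is a log2 change of -0.84 (edgeR adjusted p = 0.00078). Usp7, a deubiquitinase of both MDM2 and p53, was counted at 139.6, 169.4 and 158.5 CPM in control and at 100.9, 98.7 and 94.3 CPM in OE-labelled libraries. Its change of -0.67 (edgeR adjusted p = 0.00123) kept its call in all 18 alternatives, as did that of Huwe1. Rpl11 and Rpl5, ribosomal proteins that bind and inhibit MDM2, rose by 0.69 and 0.42 on the log2 scale (edgeR adjusted p = 0.000256 and 0.00837). Both belong to ribosomal protein genes with many processed copies, so their counts are uncertain. The call for Rpl5 was lost without control replicate 1 (adjusted p = 0.0558), control replicate 3 (0.0655) or OE-labelled replicate 2 (0.0507).

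Of 10 tested kinases and checkpoint genes, 1 was higher and 2 lower (30% called, against 29.2% of all tested genes). Each of these calls was lost under several alternatives. Hipk2, a kinase that phosphorylates p53, fell by 0.54 on the log2 scale (edgeR adjusted p = 0.0335), a call lost with DESeq2 and without control replicate 1 or 3 or OE-labelled replicate 2 or 3 (adjusted p up to 0.146). Topbp1, a checkpoint scaffold that activates ATR, fell by 0.66 (edgeR adjusted p = 0.0406), a call lost in 9 alternatives, among them the GC offset and the fits without any 1 control replicate or OE-labelled replicate 2 (adjusted p up to 0.131). Mapk14, the p38 kinase, rose by 0.55 (edgeR adjusted p = 0.049) and kept its call in 3 of 18 alternatives, losing it in every fit that left out 1 library (adjusted p up to 0.212, with DESeq2). DESeq2 called 0 genes of this list, against 19.6% of all its tested genes. The coactivators and cofactors gave 0 calls among 12 tested genes by edgeR, with 1 lower at an unadjusted p below 0.05, 0 by DESeq2 and 1 lower by limma-voom.

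**Figure D4:**
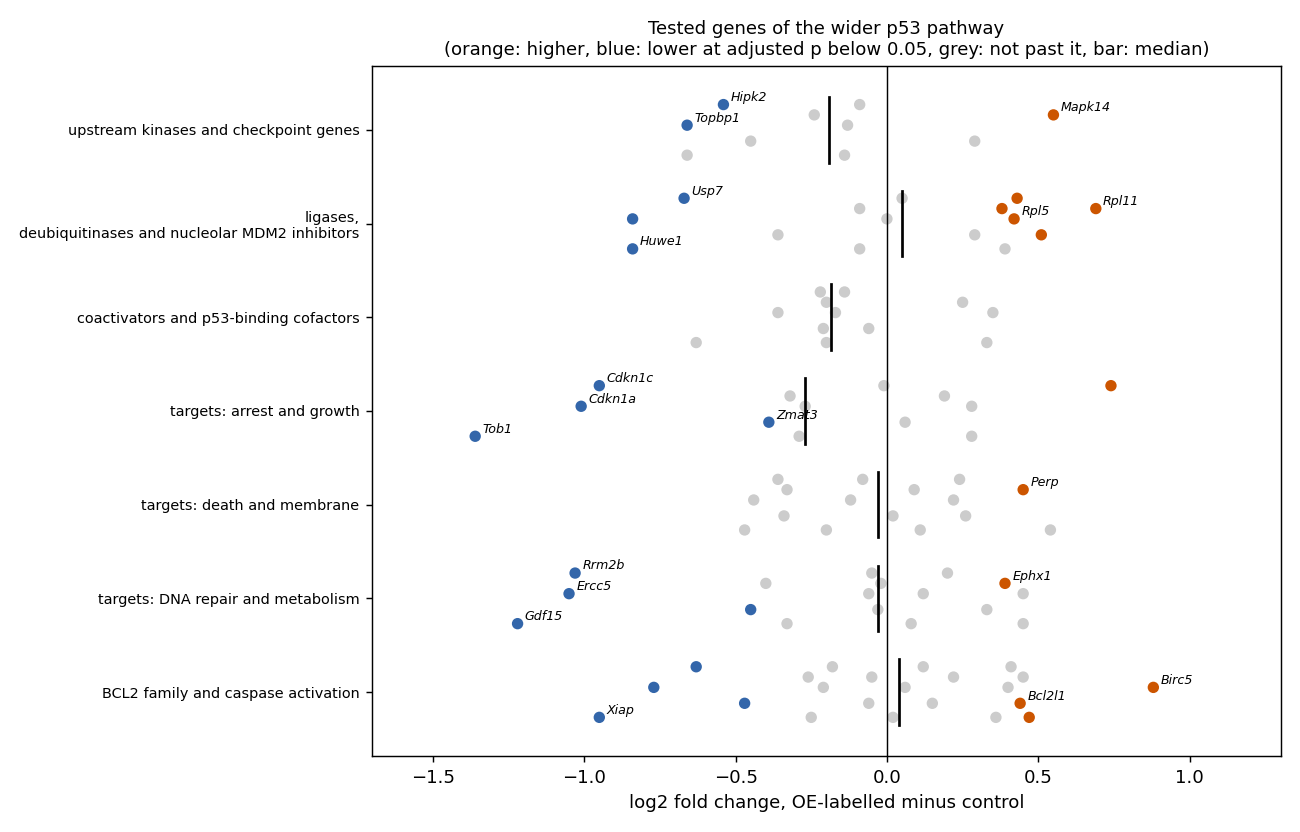
Log2 fold change (x axis, OE-labelled minus control) of the tested genes in 7 lists of the wider p53 pathway; orange and blue points passed an adjusted p below 0.05 as higher and lower, grey points did not, and black bars are list medians. Points lie on both sides of 0 in every list, and Tob1 (-1.36), Gdf15 (-1.22), Ercc5 (-1.05), Rrm2b (-1.03) and Cdkn1a (-1.01) are the lowest.

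Over the 3 lists of p53 targets outside the 10 members, 3 of 46 tested genes were higher and 8 lower. This is 23.9% called, below the 29.2% of all tested genes (16.5% higher and 12.7% lower). The lists were written from general knowledge, and whether p53 controls each listed gene in these organoids was not tested. Cdkn1a (ENSMUSG00000023067, plus strand of chromosome 17, 29090976 to 29100727), which encodes the CDK inhibitor p21, was counted at 1190, 1124 and 1104 CPM in control and at 640.1, 650.4 and 408 CPM in OE-labelled libraries. All OE-labelled libraries were far below the control range, and library 3 was the lowest. Its log2 fold change was -1.01 (edgeR SE 0.15, adjusted p = 0.000584), and it ran from -1.17 to -0.82 over 18 alternatives, all past the threshold. The exons of Cdkn1a overlap AC167363.2 on the opposite strand, and no source used here says whether the counting used strand.

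In the arrest list, 4 of 13 tested genes were lower and 1 higher (38.5% called, against 29.2% of all tested genes). Tob1, an antiproliferative BTG family member, fell from 87.2 ± 1.28 to 34 ± 9.14 CPM (SD, n = 3), which is a log2 change of -1.36 (edgeR adjusted p = 0.000262). Zmat3, an RNA-binding p53 target, was counted at 177, 171.7 and 171.9 CPM in control and at 133.3, 125.4 and 137.8 CPM in OE-labelled libraries, a change of -0.39 (edgeR adjusted p = 0.0137). Its call was lost without any 1 of the control replicates (adjusted p from 0.0598 to 0.0672). Cdkn1c, the CDK inhibitor p57, fell by 0.95 (edgeR adjusted p = 0.0109) on 17 to 34 reads per library, and was lost with DESeq2 (0.0589) and without control replicate 3 (0.0534). Sfn, which encodes 14-3-3 sigma, was the gene that rose, by 0.74 (edgeR SE 0.20, adjusted p = 0.0164); it was named after its value was seen.

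In the DNA repair and metabolism list, 4 of 17 tested genes were lower and 1 higher. This is 29.4% called, close to the 29.2% of all tested genes. Gdf15, a secreted stress cytokine and p53 target, was counted at 207.4, 203.1 and 188 CPM in control and at 70.1, 97.1 and 88.8 CPM in OE-labelled libraries. Its log2 fold change was -1.22 (edgeR SE 0.13, adjusted p = 9.28e-05). Rrm2b, the p53-induced ribonucleotide reductase subunit, had 28, 28 and 32 reads in control and 18, 17 and 14 in OE-labelled libraries, a change of -1.03 (edgeR SE 0.24, adjusted p = 0.00785). Ercc5, an endonuclease of nucleotide excision repair, fell by 1.05 (edgeR SE 0.16, adjusted p = 0.00061). These 3 genes kept their calls in all 18 alternatives. Rrm2b came close to the threshold, with an adjusted p of up to 0.049 (DESeq2). The highest edgeR adjusted p was 0.00235 for Gdf15 and 0.00759 for Ercc5. Ephx1, an epoxide hydrolase, rose by 0.39 (edgeR SE 0.11, adjusted p = 0.021), a call lost in 6 alternatives, the GC offset (0.103), all 3 fits without a control library and the fit without OE-labelled replicate 2 among them.

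In the list of death and membrane targets, 1 of 16 tested genes was higher and 0 were lower by edgeR. This is 6.2% called, against 29.2% of all tested genes. At an unadjusted p below 0.05, 2 were higher and 1 lower. DESeq2 gave 1 higher and 0 lower, where it called 19.6% of all its tested genes. Perp, a p53 target and desmosome component, was the gene that rose. It was counted at 140.6, 164.7 and 179.2 CPM in control and at 220.8, 210.8 and 229.1 CPM in OE-labelled libraries, a change of 0.45 (edgeR SE 0.12, adjusted p = 0.0121), lost without control replicate 1 (0.0858) or 2 (0.0545). The keratin and villin genes among the epithelial markers were higher in the same libraries, with log2 fold changes of 0.74 for Krt8, 0.92 for Krt18, 0.66 for Krt19 and 0.65 for Vil1 (edgeR adjusted p from 7.22e-05 to 0.0022), and of 0.07 for Epcam and -0.12 for Cdh1, which did not pass. Their part in the change of Perp was not tested.

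**Figure D5:**
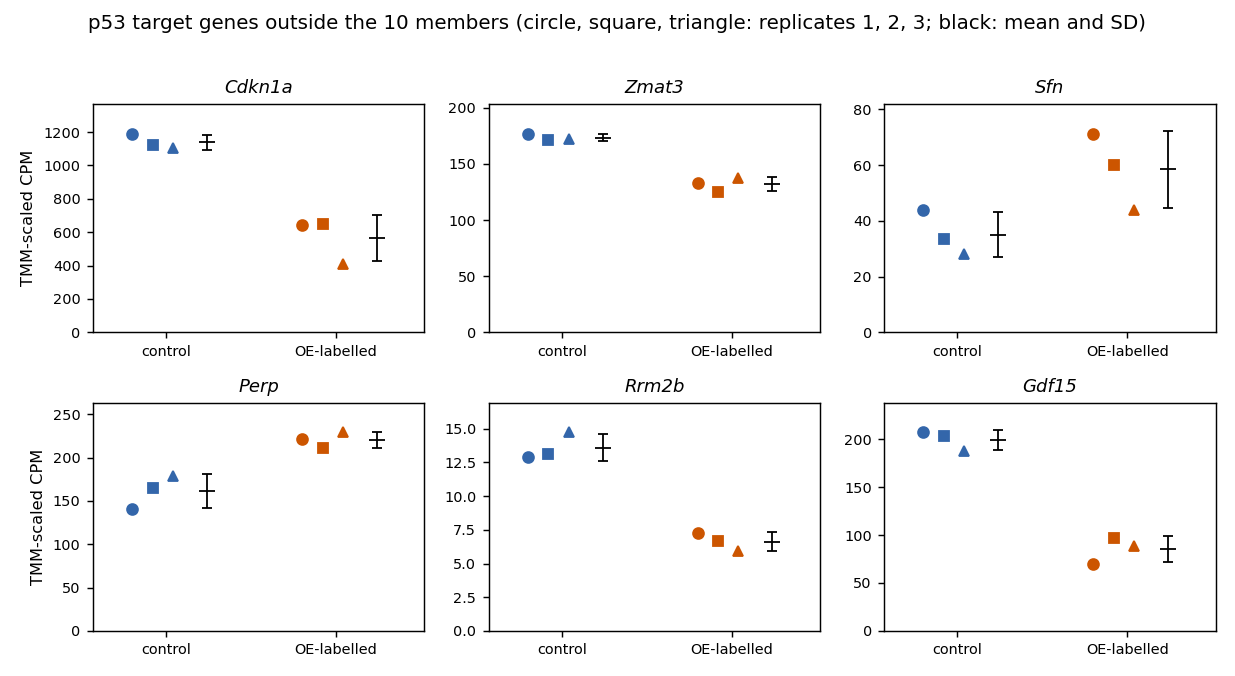
TMM-scaled CPM (y axes, each from 0) of 6 p53 target genes outside the 10 members in control (blue) and OE-labelled (orange) libraries; circles, squares and triangles are replicates 1, 2 and 3, and black bars are the mean and SD. The groups do not overlap in any of the 6 panels. Cdkn1a, Zmat3, Rrm2b and Gdf15 are lower and Sfn and Perp higher in OE-labelled libraries. All 6 come from the 11 genes in the 3 target lists that passed an adjusted p below 0.05, a choice that favours separated groups. Of the 46 tested genes in the target lists, 43.5% had control and OE-labelled values fully apart, beside 45.7% of all tested genes.

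In the BCL2 family and caspase list, 3 of 22 tested genes were higher and 4 lower by edgeR. This is 31.8% called, close to the 29.2% of all tested genes. DESeq2 gave 0 higher and 2 lower, where it called 19.6% of all its tested genes. Xiap, an inhibitor of caspases, fell from 127.2 ± 12.2 to 65.8 ± 7.7 CPM (SD, n = 3), which is a log2 change of -0.95 (edgeR SE 0.13, adjusted p = 0.000372), and it passed the threshold in all 18 alternatives. Birc5 (survivin) rose by 0.88 (edgeR adjusted p = 0.0281), a call lost with DESeq2 (0.134). Without control replicate 1 or 2 its adjusted p was 0.11 and 0.0988, and without OE-labelled replicate 1 or 3 it was 0.0844 and 0.0502.

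Bcl2l1, which encodes the BAX antagonist BCL-XL, was counted at 120.3, 117.3 and 112 CPM in control and at 192.4, 156.1 and 126 CPM in OE-labelled libraries. Its log2 fold change was 0.44 (edgeR adjusted p = 0.036), a call lost in 10 of 18 alternatives, each fit without a control library, without OE-labelled replicate 1 (0.22, adjusted p = 0.151) or without OE-labelled replicate 2 among them. The ratio of Bax to Bcl2l1 counts within a library was 0.205, 0.26 and 0.278 in control and 0.0653, 0.108 and 0.161 in OE-labelled libraries. The groups did not overlap, and the two-sided exact permutation p was 0.1, the smallest that 3 against 3 libraries can give. This pair was chosen after its values were seen.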

How the data were processed

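Per the labels' protocols, DNase-treated total RNA was used for QuantSeq 3′ forward libraries, whose counts do not scale with transcript length. The submitters' processing notes name STAR, HTSeq and the mm10 (GRCm38) build. Strand setting, molecular identifiers and shared reads are not given in the sources used here. The authors deposited unnormalized estimated counts for 52249 genes; 2843 values were fractional and were rounded for the tests, although whole counts had been planned for. Groups and replicate numbers come from the sample titles. Positions and GC content were taken by gene ID from GENCODE (mouse release 21, GRCm38; 99.3% of IDs matched), and promoter sequences from RefSeq (GRCm38.p6). GC content was averaged over the full transcripts of a gene, not over the 3′ ends that such libraries read.

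All genes were fitted with the edgeR 4.0.16 quasi-likelihood test (R 4.3.3, filterByExpr, TMM, no covariates, Benjamini-Hochberg over 10687 genes, threshold 0.05). CPM are TMM-scaled. The SE was derived from the F statistic (estimate over root F), and 95% intervals use it with edgeR's total degrees of freedom. The 3-count floor covers counting error only. The alternatives were DESeq2 1.42.0, limma-voom (limma 3.58.1), other scalings, filters and depth, unrounded counts, a GC offset (loess, span 0.5), the replicate block, each library left out, and a threshold of 0.01. Named were all members, Wrap53, Cdkn1a and up to 4 called genes per list by smallest p. A gene that this rule names is not reported here, though the counts of its list include it. The members and lists, written from general knowledge, were chosen with earlier results of these data known. The fit was tested on simulated data in which both groups had the same spread. That test does not cover the unequal spreads of these data.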

Additional observations from a re-analysis of the deposited data

How the results depend on the processing

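Of 180 values of the 10 members under the 18 alternatives, 161 kept direction and side of the threshold, 6 lost a call, 2 gained one (both Mdm4: -0.40 without mitochondrial genes and CT010467.1, and -0.52 without OE-labelled replicate 1) and 11 changed sign without passing. The sign changes were those of Ccng1 (0.03 with library totals, 0.31 with the GC offset, 0.32 with the replicate block and GC offset, and -0.10 to 0.05 on leaving out 1 library), Sesn2 (-0.10 with the GC offset alone and with the block added, and -0.03 to 0.23 on leaving out 1 library) and Phlda3 (-0.06 with the GC offset and -0.05 with the block and GC offset). Trp53inp1 was -0.30 with the block and GC offset (adjusted p = 0.115). Of the other named genes, Wrap53 changed sign to -0.07 with the GC offset, alone or blocked, and lay between -0.03 and 0.32 on leaving out 1 library. The count of members called was 1 (Trp53inp1) at an adjusted p below 0.01, and 1 to 4 on leaving out 1 library. The wider pathway gave 29 calls, 18 with DESeq2, 11 at the stricter threshold and 12 to 32 on leaving out 1 library. Over all genes, 3118 passed, 1994 with DESeq2, 1578 at the stricter threshold and 1748 to 3532 on leaving out 1 library, lowest without control replicate 3. The share of higher calls was 56.6%, 49.9% with DESeq2 size factors, 63.8% with library totals and 47.9% without mitochondrial genes and CT010467.1. With the replicate block 3112 genes passed and the 3 members kept their calls. Deviations of equally numbered libraries correlated at 0.0975, 0.0181 and 0.0695, so the numbers were not taken as pairs, although 5 of 6 libraries correlated best with their own number. Among the named genes the block changed the call of Mapk14 (adjusted p = 0.0541). Trp53, Bax and Sesn2 rest on 28 to 73 reads per library, where counting noise alone gives a coefficient of variation of 12.5% to 16.7%.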
